A study of Sus scrofa with 6 samples.

Results

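The spliceosome genes described here are the genes whose pathway annotation in the deposited tables has the entry Spliceosome and lacks the entry for protein processing in the endoplasmic reticulum. There were 82 of them among 19465 listed genes, and 1 further gene, HSPA2, was left out because it carries both entries. In each tissue, 81 of the 82 passed a mean normalised read count of at least 10. The member that did not pass is CCDC12 (ENSSSCG00000007882), with 0 reads in every library, and the lowest member that did pass was MAGOHB in each tissue, with means of 112 in the hypothalamus, 128 in the pituitary and 193 in the ovary. RNA had been sequenced from 3 whole tissues, the hypothalamus, the pituitary and the ovary. They came from primiparous sows of the cross Landrace x Large White and from 2 states, normal estrus and anestrus, which the labels put down to inactive ovaries. No transgene, drug or other agent is named, the age of the sows was not given in the sources used here, and each combination of tissue and state is 1 library, 6 in all. The labels count 3 sows in each state without saying whether their RNA was pooled. Every difference below therefore compares 2 libraries and has no replicate check within a tissue. The tests run here took the states over the 3 tissues together, with tissue as a block. The authors' p-values, also given below, compare the 2 libraries of a tissue. "Higher" and "lower" describe the anestrous library of a tissue set against its estrous library.

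The spliceosome removes introns from messenger RNA precursors. It is built anew on each intron from small nuclear ribonucleoproteins (snRNPs), which pair a U-rich RNA with a ring of Sm or LSm proteins and with proteins of their own: U1 recognises the start of the intron, U2 the branch point, and the U4/U6 and U5 particles join as a tri-snRNP before the PRP19 complex and a series of RNA helicases bring the machine to its active form. SR proteins and hnRNPs bind the precursor and steer which sites are used, and the exon junction complex and the TREX complex mark and export the spliced product. Every cell that makes messenger RNA carries this machinery, while brain and germ cells are known for the range of their alternative splicing.

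The 6 libraries held 15314325 to 17384789 reads assigned to genes. Marker genes fitted the labelled tissues: 7 anterior pituitary markers summed to 248811 and 259550 RPM (reads per 1000000 gene reads) in the pituitary libraries, against 459 or fewer in the others, 6 neuron markers summed to 3327 and 4453 in the hypothalamus, and 6 granulosa and theca markers to 13659 and 1351 in the ovary. Between states, 6 of 6 neuron markers were higher and 4 of 4 myelin and 4 of 4 choroid plexus and ependyma markers lower in the hypothalamus, where 4 of 5 thalamus markers were also higher (82.7 and 116), 7 of 7 measured cell cycle markers were lower in the pituitary, and in the ovary all 6 granulosa and theca markers, all 5 oocyte markers (summed level 170 in estrus and 52.4 in anestrus) and 7 of 8 cell cycle markers (161 and 108) were lower while 5 of 6 measured macrophage markers were higher (1107 and 1461). Both measured red blood cell markers were also lower in the ovary (54.8 and 16.4). The 5 thalamus markers summed to 74.5 in the estrous and 134 in the anestrous ovary, so that list did not mark the hypothalamus alone.

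Spliceosome genes took a larger share of the reads in the estrous ovary than in any other library. Their 82 genes held 1.15% of the gene reads there and 0.834% in the anestrous ovary. The pituitary libraries stood at 0.844% (estrous) and 0.807% (anestrous), and the hypothalamus libraries at 0.808% and 0.742%. The estrous library was thus the higher of the pair in all 3 tissues on this scale, which depends on the reads that other genes take: the top 10 genes of a library took 33.3% and 35.9% of the reads in the pituitary but 8.55% and 11.5% in the ovary. By role, hnRNP genes contributed most reads, 21.7% to 24.5% of those of all spliceosome genes in each library, and the 4 LSm genes least among the named groups, 0.876% to 1.13%. These shares are not corrected for transcript length, so they describe where reads were assigned and not how many molecules of each protein's messenger were present.

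**Figure D1:**
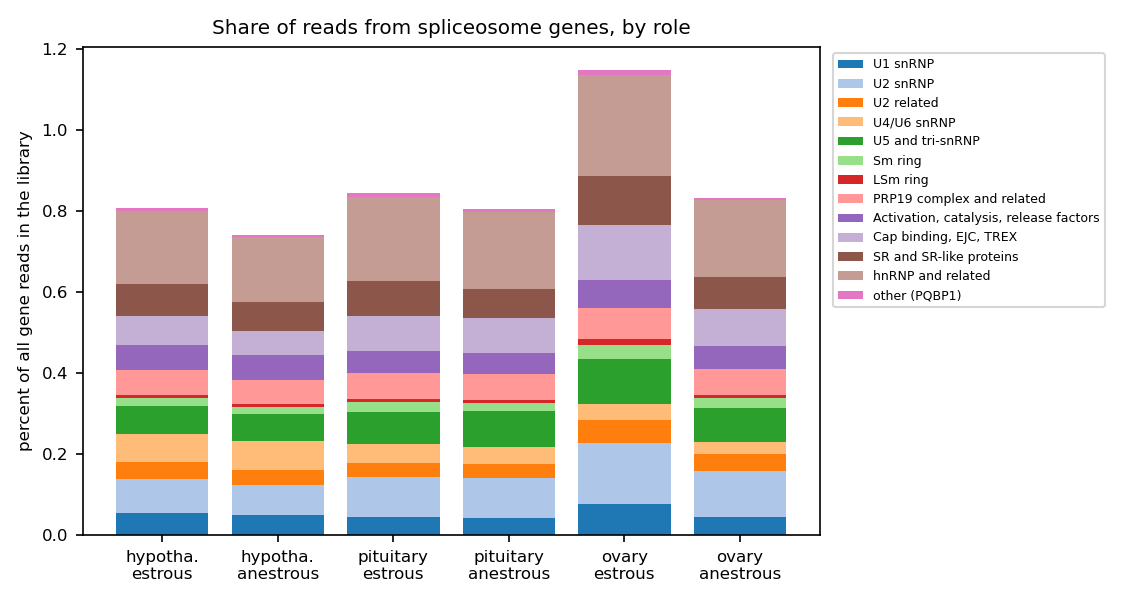
Bars give the percentage of all gene reads in each of the 6 libraries assigned to spliceosome genes, with colours for the role groups (EJC is the exon junction complex). The estrous ovary stands at 1.15%, and the other 5 libraries lie between 0.742% and 0.844%.

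Across tissues, levels are given as RPM or after scaling all 6 libraries together, since the authors normalised each tissue's pair of libraries separately, and no test was made across them. Both ovary libraries were above both hypothalamus libraries for 50 of 81 members (61.7%), against 39.5% of 11897 genes with a mean of at least 10 in every tissue. The reverse order held for 5 members, SNU13, CWC15, ZMAT2, WBP11 and PRPF19 (35% of all genes). Scaling the 6 libraries by a trimmed mean of log ratios gave 52 members higher in the ovary (38.8% of all genes) and the same count of 5 higher in the hypothalamus (36.5%). The place of the pituitary depended on that choice. By RPM, 39 members were above the hypothalamus in both pituitary libraries (29.2% of all genes) and 23 below it (49.7%), and after trimmed-mean scaling 53 (41.9%) and 9 (37.9%). By RPM the ovary was above the pituitary for 40 members (47.4% of all genes) and below it for 3 (21.2%), and after trimmed-mean scaling for 17 (32.2%) and 18 (34.5%).

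By RPM the genes of the Sm core proteins E and G showed wide gaps between tissues. SNRPG was at 85.1 RPM in the estrous and 54.1 in the anestrous ovary, against 22.7 to 27.3 in the 4 other libraries. SNRPE was at 75.0 and 48.1 in the ovary, while the pituitary held 37.3 and 36.1 and the hypothalamus 27.7 and 20.0. Both genes thus had their 2 highest libraries in the ovary, whereas SNRPD1 and SNRPD3, which belong to the same ring, did not separate the ovary from the other tissues: SNRPD3 was at 103 and 68.6 in the ovary and between 69.3 and 76.5 elsewhere. ACIN1, an accessory protein of the exon junction complex, was at 398 and 236 in the ovary, compared with 215 and 218 in the pituitary, and the hypothalamus held 150 and 117. With trimmed-mean scaling the ACIN1 means lay closer in ovary and pituitary, at 286 and 252, with 125 in the hypothalamus. SNU13, which binds a kinked stretch of U4 RNA and is also part of the particles that modify ribosomal RNA, ran the other way. The hypothalamus held 547 and 584 RPM, the pituitary 325 and 275, and the ovary 201 and 132, so its hypothalamic mean was 3.40 times its ovarian mean. Its 3 tissues did not overlap.

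In the ovary, most spliceosome genes were slightly lower in anestrus. Of 81 measured members, 72 (88.9%) were lower and 9 higher, while 49.6% of all 13193 measured genes were lower. The median log2 ratio of anestrous to estrous normalised counts, each with a pseudocount of 1, was -0.26, with the middle 50% of members between -0.44 and -0.10. Over all measured genes the median was 0.0054 and the middle 50% lay between -0.45 and 0.51. Few members were far apart: 9 were at least 1.5-fold lower, or 11.1% against 20.1% of all genes, 1 was at least 2-fold lower (10.7% of all genes), and none was 1.5-fold higher (22.7% of all genes). The other 72 lay within 1.5-fold, as did 57.2% of all genes. All genes here include many with fewer reads than the members. At a mean of at least 200, 8 of 80 members and 1142 of 8016 genes were at least 1.5-fold lower. At least 1.5-fold higher were 0 of these members and 1572 of these genes. The pattern is thus one of many small differences on the same side. With library totals made equal, which shifted every ovary log2 ratio by -0.20, 80 of 81 members and 60.9% of all genes were lower, and 26 members were at least 1.5-fold lower (32.1%, against 28.1% of all genes). LSM6 alone remained higher on that scale. Set against the median of all genes, 72 of 81 members lay below it with the authors' size factors. Equal totals and a trimmed mean of log ratios shift members and all genes alike, so that count was bound to stay at 72.

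The cell makeup of the ovary libraries moved along with this, as the marker sums given earlier show, and its part in the result was not tested. In tissue libraries, fewer cells of a type and less RNA per cell cannot be told apart. Other pathway entries of the same tables did not all lie on the same side in the ovary, although no difference between lists was tested. Ribosome genes were lower in 67 of 85 (median -0.36) and cell cycle genes in 60 of 87 (median -0.21), both without spliceosome genes. RNA transport genes outside the spliceosome entry split into 51 lower and 48 higher (median -0.019), and genes of protein processing in the endoplasmic reticulum were higher in 82 of 115 (median 0.24).

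**Figure D2:**
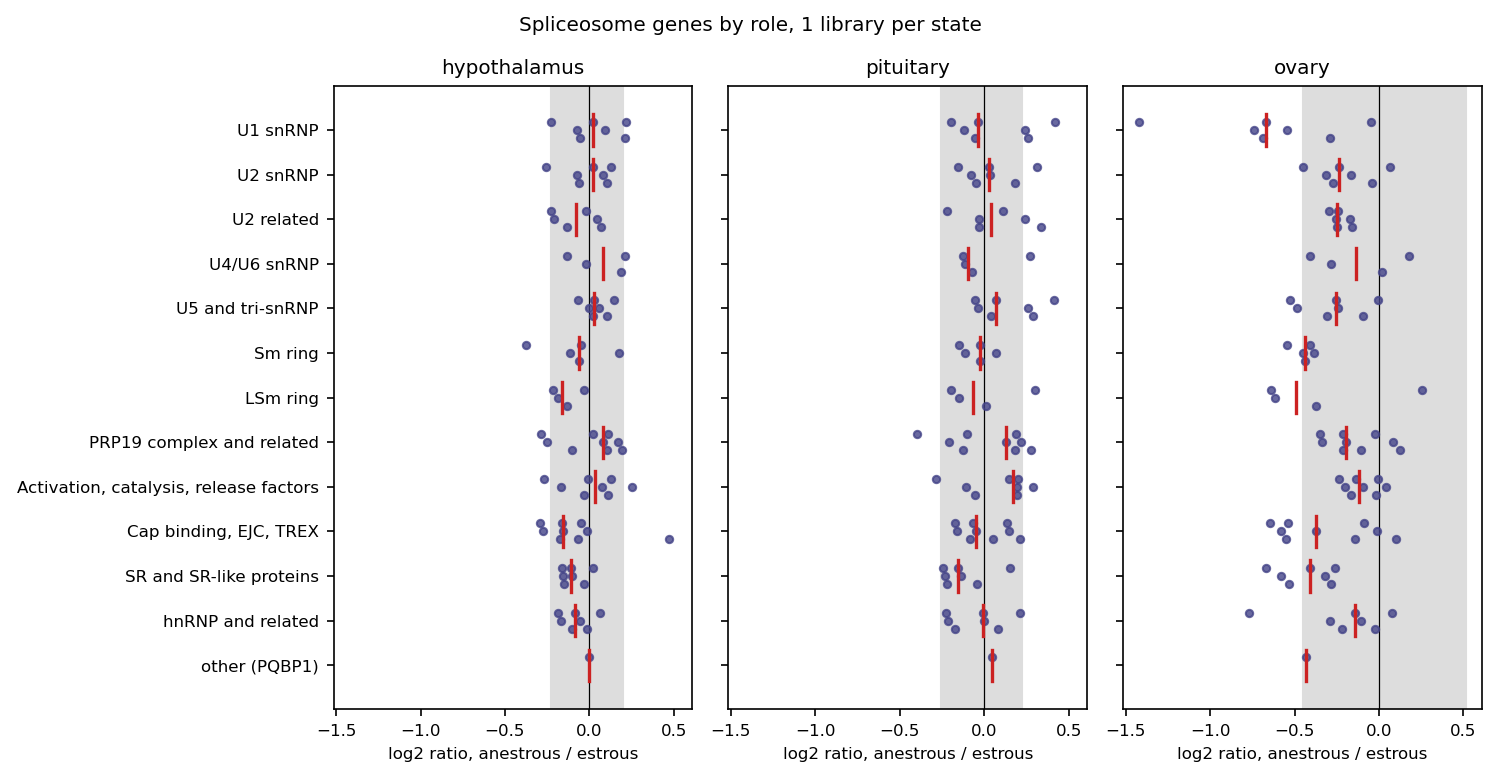
Each point is a spliceosome gene, placed by its log2 ratio of anestrous to estrous normalised counts in 1 of the 3 tissues, with role groups on the vertical axis, red bars for group medians and grey bands for the middle 50% of all measured genes. In the ovary 72 of 81 points lie left of 0, and the U1 group has the lowest median, -0.67.

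By role, the U1 snRNP with its associated factors stood lowest in the ovary. All 7 genes of the group were lower and 4 of them at least 1.5-fold (median -0.67). In the hypothalamus and pituitary the medians of these genes were 0.020 and -0.035. PRPF40B resembles the yeast U1 protein Prp40, which bridges the ends of an intron there. It held 1062 reads in the estrous library and 366 in the anestrous one, or 1020 and 381 after normalisation. The difference was 2.68-fold, and its 95% interval for counting error ran from 2.38 to 3.02. SNRPA, whose protein binds a stem-loop of U1 RNA, gave 1006 and 555 reads (normalised 966 and 578), 1.67-fold lower (1.51 to 1.86). SNRNP70, whose protein binds another stem-loop of the same RNA, gave 3679 and 2139 reads (3534 and 2227) and a log2 ratio of -0.67. RBM25, a splicing regulator that works with U1, gave 2175 and 1248 reads (2089 and 1299), a log2 ratio of -0.69. SNRPC, which helps U1 hold the start of the intron, gave 876 and 661 reads, a log2 ratio of -0.29.

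**Figure D3:**
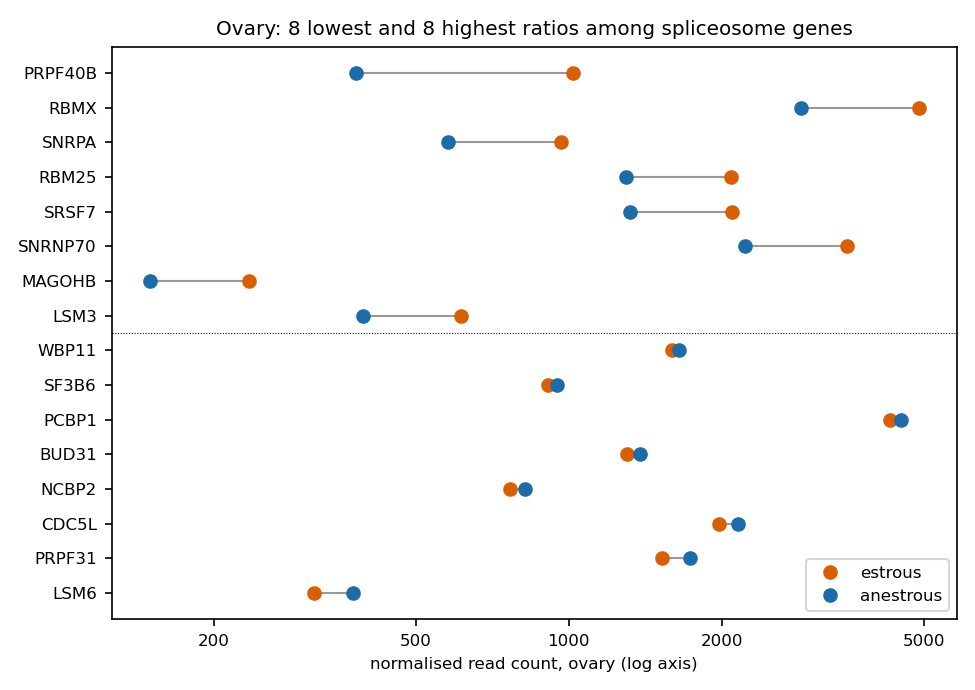
Points give the normalised read counts of the estrous and anestrous ovary library on a log axis for the 8 spliceosome genes with the lowest and the 8 with the highest ratio. PRPF40B spans 1020 to 381, while the pairs below the dotted line, from WBP11 to LSM6, differ by a log2 ratio of 0.25 or less.

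Most ring genes were lower as well. All 5 measured Sm genes had ovary log2 ratios between -0.55 and -0.39, a narrow range, with SNRPF at 664 and 419 reads and SNRPE at 1161 and 790. Of the 4 LSm genes, which form the ring of U6 and, in another combination, serve in RNA decay, LSM3 (639 and 378 reads, 1.56-fold lower, 1.37 to 1.78) and LSM5 (357 and 215 reads) were at least 1.5-fold lower and LSM7 was at -0.37. LSM6 gave 328 and 361 reads and had the highest ratio of any member, 1.19 (1.02 to 1.39). The LSm genes thus did not move as a block.

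The U2, U5, U4/U6, PRP19 and activation groups had ovary medians closer to 0 than the U1, Sm and LSm groups. The LSm group, which includes the ring of U6, had a median of -0.49, and no order by step of assembly was tested. The 7 U2 snRNP genes had a median of -0.24 in the ovary, with SF3B1, the scaffold around the branch point, at 9456 and 7235 reads (-0.27), SF3B3 at -0.45 and SF3B6 at 0.063. The 6 U2-related genes lay between -0.30 and -0.16. The 7 genes of U5 and the tri-snRNP were all lower, with a median of -0.25 and the lowest values for SNRNP27 (-0.52) and TXNL4A (-0.49). PRPF8, the protein at the catalytic centre, gave 8560 and 6665 reads (-0.25), and EFTUD2, a GTPase of U5, gave 3651 and 3356, a ratio of 0.996 (0.950 to 1.04). The 4 U4/U6 genes split evenly, with SNU13 at -0.41 and PRPF31, which binds the U4 RNA next to it, at 1591 and 1662 reads and 0.18. The 9 genes of the PRP19 complex and its partners had a median of -0.19 and included CDC5L, a core subunit, at 2054 and 2065 reads and 0.12, and PRPF19 itself, a ubiquitin ligase, at -0.10. The 8 measured factors of activation, catalysis and release had a median of -0.12 and stayed between -0.24 and 0.044, with the helicase gene DHX15 at -0.20 and WBP11 at 0.044.

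Among proteins that bind the precursor or the product, SR proteins were lower in 7 of 7 in the ovary (median -0.41). SRSF7 gave 2180 and 1266 reads (normalised 2094 and 1318), 1.59-fold lower (1.48 to 1.70), and SRSF1, which recognises exon enhancers, gave 3716 and 2585, 1.33-fold lower (1.26 to 1.40). The hnRNP group had a median of -0.14 with 1 member far from the rest. RBMX, an X-linked hnRNP, gave 5082 and 2753 reads (4882 and 2866), 1.70-fold lower (1.63 to 1.78), whereas HNRNPU was at -0.024 and PCBP1 at 0.078. The 9 cap-binding, exon junction and TREX genes had a median of -0.37. MAGOHB gave 245 and 144 reads, 1.57-fold lower (1.27 to 1.94), ACIN1 was at -0.55, and the export helicase DDX39B gave 8166 and 5811 reads (-0.37), while NCBP2, the smaller cap-binding protein, was at 0.10. PQBP1, in no role group here and known for its link to intellectual disability, was at -0.43.

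MAGOH and MAGOHB encode almost identical subunits of the exon junction complex, so how reads were divided between them is uncertain. In the hypothalamus MAGOHB gave 24.5% and 33.6% of their reads, with 26.5% and 25.5% for the pituitary and 31.2% and 22.5% for the ovary. HNRNPA1 and HNRNPA3 encode related hnRNPs. HNRNPA3 gave 40.3% and 38.4% of the reads of both in the hypothalamus, and the pituitary and ovary libraries lay between 28.2% and 34.3%.

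**Figure D4:**
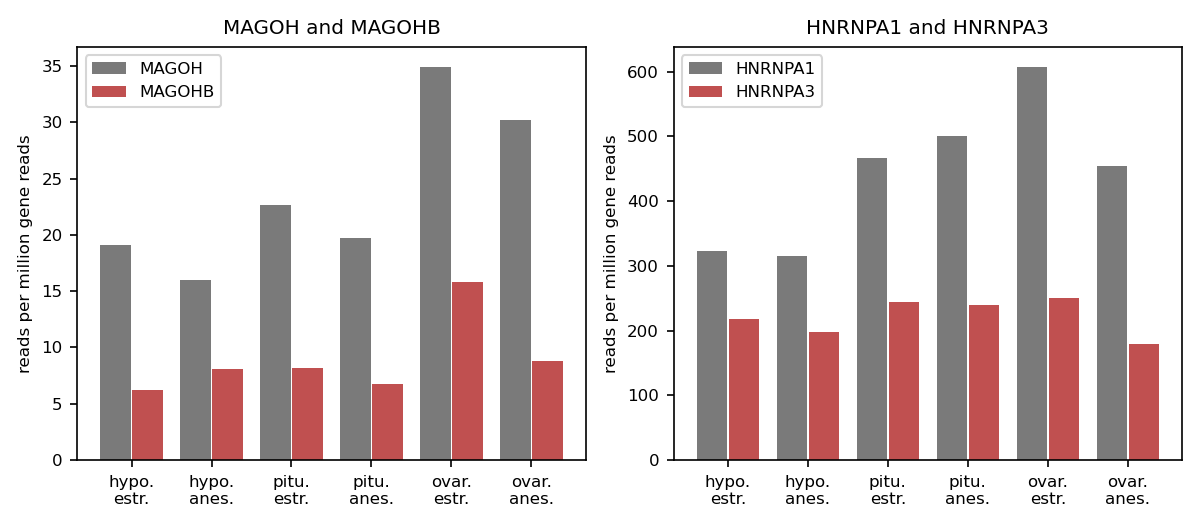
Bars give RPM for 2 pairs of related genes in the estrous and anestrous libraries of hypothalamus, pituitary and ovary. On this scale all 4 genes are highest in the estrous ovary, HNRNPA1 at 608 and HNRNPA3 at 251; with trimmed-mean scaling the pituitary mean is the higher for these 2, 564 against 482 and 281 against 195. Heights are not comparable between genes.

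In the hypothalamus no spliceosome gene differed by 1.5-fold. All 81 measured members lay within that range, as did 85.6% of all 13587 measured genes. At a mean of at least 200, 203 of 8158 genes were at least 1.5-fold lower and 304 higher, beside 0 of 78 members. The median log2 ratio of the 81 members was -0.034, with 50 lower and 31 higher (61.7% lower, against 50.2% of all genes). With equal totals, which shifted the ratios by -0.092, 63 were lower (77.8%, against 62.6% of all genes). The ratio farthest from 1 was that of MAGOHB, with 95 and 128 reads, 1.39-fold higher (1.06 to 1.83). Next came SNRPE, with 424 and 316 reads, 1.30-fold lower (1.12 to 1.51). Other low ratios were those of THOC2, a large TREX subunit, at -0.29, PPIL1, a prolyl isomerase of the activated spliceosome, at -0.29, ACIN1 at -0.27, SF3B1 at -0.26 (5015 and 4066 reads), BUD31 at -0.25 and the helicase gene DDX46, which helps U2 bind, at -0.23. High ratios were those of WBP11 at 0.25 (1923 and 2221 reads), PRPF40B at 0.22, PRPF31 at 0.21, PRPF19 at 0.19, SNU13 at 0.19 (8379 and 9240 reads) and SNRPF at 0.18.

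In the hypothalamus groups that bind or export RNA leaned lower, and the U5 and PRP19 groups leaned higher. The cap-binding, exon junction and TREX group was lower in 8 of 9, SR proteins in 6 of 7, hnRNPs in 6 of 7 and LSm genes in 4 of 4, with medians between -0.16 and -0.087. U5 and tri-snRNP genes were higher in 5 of 7 and the PRP19 group in 6 of 9, with medians of 0.029 and 0.081. These medians are within the middle 50% of all genes, -0.23 to 0.20. With equal totals they shift by -0.092, which puts the U5 and PRP19 medians below 0. The neuron, myelin, thalamus and choroid plexus markers differed between the same libraries, and their part was not tested.

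In the pituitary all 81 measured members also lay within 1.5-fold, against 82.6% of 13144 genes. At a mean of at least 200, 313 of 7576 genes were at least 1.5-fold lower and 231 higher, beside 0 of 79 members. The median log2 ratio of the 81 members was -0.027, with 43 lower and 38 higher (53.1% lower, against 50.3% of all genes). With equal totals, a shift of -0.12, 54 were lower (66.7%, against 63.8%). PRPF40B gave 680 and 860 reads, 1.34-fold higher (1.21 to 1.48), and EFTUD2 gave 2585 and 3245, 1.33-fold higher (1.26 to 1.40). PRPF8, which sits beside EFTUD2 in U5, gave 7172 and 8269 reads, 1.22-fold higher (1.18 to 1.26), and SF3B2 gave 6037 and 7078, 1.24-fold higher (1.20 to 1.29). With CHERP (0.33), LSM7 (0.30), SLU7, a factor of the second catalytic step (0.29), and XAB2 (0.28), these were the 8 highest ratios. Lowest was BCAS2, a core subunit of the PRP19 complex, with 744 and 533 reads, 1.32-fold lower (1.18 to 1.48). DHX15, which takes the spent spliceosome apart, followed at -0.29, and then SRSF1 (-0.24), SRSF7, PCBP1 (both -0.23), SRSF2, SMNDC1 (both -0.22) and HNRNPU (-0.21).

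SR proteins were lower in 6 of 7 in the pituitary (median -0.16). They were the group with the lowest median there, and SRSF4 alone was higher, at 0.15. The factors of activation, catalysis and release had the highest median, 0.17, with 5 of 8 higher. The equal-totals shift of -0.12 leaves that median above 0. Cell cycle markers, of which 7 of 7 were lower, summed to 37.7 RPM in the estrous pituitary and 17.6 in the anestrous one, and their part was not tested.

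Between tissues, the ovary had the lowest of the 3 log2 ratios for 63 of 81 members, against 39.9% of all genes measured in every tissue. In all 3 tissues, 27 members were lower (33.3% of 81, against 12.7% of all genes) and 3 were higher (WBP11, CDC5L and PRPF31, against 13%). With equal totals none of those 3 was higher in the ovary. In pituitary and ovary alone, 37 members were lower in both (23.8% of all genes). The 27 included 4 SR proteins (SRSF1, SRSF6, SRSF7 and SRSF9) with TRA2A, 3 Sm genes (SNRPD1, SNRPD3 and SNRPG) and SNRNP70, but since 72 members were lower in the ovary, this count follows in part from that tissue. The tissues do not share libraries, though they may share sows. Across the 81 genes, which are not independent replicates, the log2 ratios of hypothalamus and pituitary had a Pearson r of 0.25 and a Spearman rho of 0.30 (0.30 and 0.14 over all 11897 genes). Hypothalamus and ovary had 0.013 and 0.12, and pituitary and ovary -0.016 and 0.082.

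In the authors' deposited tables no spliceosome gene had an adjusted p of at most 0.05 in any tissue, beside 118, 100 and 108 genes in all for hypothalamus, pituitary and ovary. None had an unadjusted p of at most 0.05 there either, and the lowest was 0.0605 for PRPF40B in the ovary. Those values compare pairs of libraries. The median member's 95% counting interval reached 1.08-fold to 1.09-fold to either side of its ratio. Ratios of single genes nearer to 1 than that, such as EFTUD2 in the ovary, are of the size of counting error, and the spread between sows is unknown. That interval is not the one of a median over 81 members, but the medians still rest on 1 library per state and shift with the scaling. Over the 3 tissues with tissue as a block, edgeR and DESeq2 called 0 of 81 members at an adjusted p of at most 0.05. Among all genes edgeR called 0 of 14444 and DESeq2 46 of 16887, so few calls were to be had in any list. Neither tool gave a member an unadjusted p of at most 0.05.

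Splicing genes that lack the pathway entry gave further views of the same libraries. Of the names in the role lists that match no member, some of them older symbols of members, 16 were found in the tables and 14 were measured in each tissue. In the ovary 9 of the 14 (64.3%) were lower, against 49.6% of all measured genes (median -0.22). At least 1.5-fold lower were 4 of the 14 and at least 1.5-fold higher 1, beside 20.1% and 22.7% of all genes. Those 4 were LUC7L3 (2668 and 1219 reads, -1.01), LUC7L (-0.79) and PRPF39 (-0.65), which all resemble yeast U1 proteins, and PRPF3 of the tri-snRNP (-0.62). They were singled out after their values were seen. DDX23, a helicase of U5, gave 972 and 1576 reads and went the other way, at 0.81. SRSF3, an SR protein, was lower in pituitary (3330 and 2026 reads, -0.63) and ovary (4310 and 2771, -0.52) and stood at 0.073 in the hypothalamus.

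Kinases that phosphorylate SR proteins split in the ovary, with 6 of 9 lower (median -0.36). CLK1 gave 3427 and 1571 reads (-1.01) and CLK4 gave 1464 and 799 (-0.76), while SRPK1 gave 156 and 230 (0.67). SRPK3, singled out for its value, gave 70 and 23 reads, few enough that its log2 ratio of -1.45 is uncertain. In the pituitary 7 of 9 were higher, with CLK4 at 0.33 and CLK1 at 0.32, and in the hypothalamus CLK1 was at -0.33 and SRPK2 at 0.29. The minor spliceosome, which removes a rare class of introns, had 8 measured genes and medians of -0.17, 0.12 and -0.16 in hypothalamus, pituitary and ovary. SNRNP48 was at -0.73 in the hypothalamus (264 and 154 reads), CCDC84 at 0.62 in the pituitary (90 and 131) and SNRNP25 at -0.80 in the ovary (1367 and 722).

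Genes of snRNP assembly were lower in 9 of 10 in the ovary (median -0.29), with GEMIN6, a subunit of the SMN complex, at -0.62 (511 and 307 reads), SART3, which recycles U6, at -0.56, and COIL, the marker protein of Cajal bodies, at -0.49. In the pituitary WDR77, a partner of the enzyme that methylates Sm proteins, was at -0.63 (1493 and 913), COIL was at -0.50 and GEMIN6 at 0.42. In the hypothalamus TGS1, which further methylates the existing cap of snRNAs, was at -0.56. Other hnRNP genes had medians of -0.15, -0.091 and -0.094 in hypothalamus, pituitary and ovary. In the ovary they ranged from HNRNPH3 at -1.06 (1857 and 823 reads) to SYNCRIP at 0.85 (862 and 1432), with an interquartile range of 0.81, against 0.96 for all genes.

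Of 17 measured splicing factors known for tissue-restricted activity, 6 were at least 1.5-fold higher in the ovary (22.7% of all genes) and 2 at least 1.5-fold lower (20.1%). Their median was 0.17 and their interquartile range 0.99, near the 0.96 of all genes. PTBP3 gave 72 and 253 reads (1.91), CELF2 gave 68 and 215 (1.76), and ESRP1, an epithelial splicing factor, gave 96 and 24 (-1.84). In the pituitary CELF5 gave 68 and 131 reads (1.02), MBNL3 was at -0.51 and CELF6 at -0.46. In the hypothalamus the neuronal factor RBFOX1 gave 105 and 191 reads (0.90), PTBP3 was at -0.75 and the neuronal RNA-binding protein gene ELAVL2 at 0.40.

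**Figure D5:**
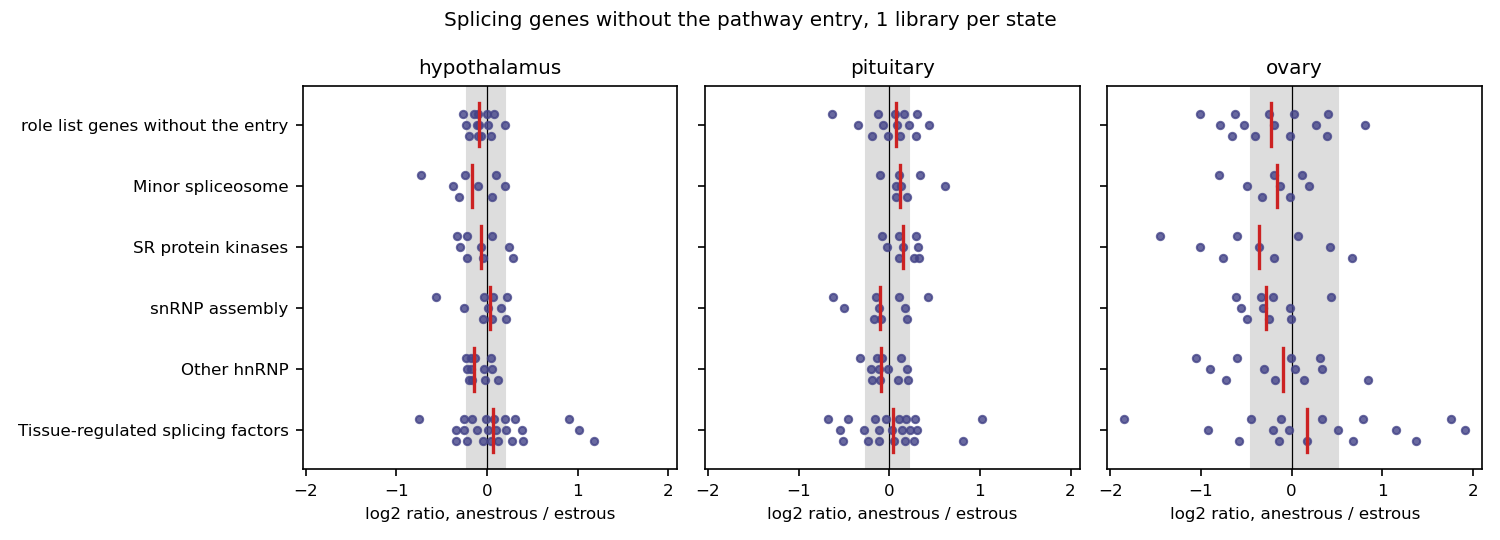
Each point is a splicing gene without the pathway entry, placed by its log2 ratio of anestrous to estrous normalised counts in each tissue, with red bars for list medians and grey bands for the middle 50% of all measured genes. In the ovary the lists reach from -1.84 (ESRP1) to 1.91 (PTBP3), wider than in the other tissues.

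Beyond the entry that chose them, the members shared other annotation. Terms for splicing and RNA binding overlap in content with that entry, so their excess follows from how the members were chosen. Of the 82, 35 (42.7%) carried the gene ontology term for the catalytic step 2 spliceosome, against 0.277% of all listed genes, 17 (20.7%) the term nuclear speck, against 0.334%, and 44 (53.7%) poly(A) RNA binding, against 3.22%. Of other pathway entries, RNA transport was held by 9 members, all of the cap-binding, exon junction and TREX group, mRNA surveillance by 7 of these, and RNA degradation by the 4 LSm genes. The symbols of 4 members also occur at a second gene identifier without the entry. For CCDC12 that second identifier (ENSSSCG00000011329) held 588 and 589 reads in the hypothalamus libraries, 567 and 467 in those of the pituitary and 528 and 576 in those of the ovary, while the member held 0, which allows up to 3 reads per library. PRPF38A gave 439 and 343 reads in the ovary at the member and 196 and 138 at the second identifier, CTNNBL1 gave 357 and 284 against 366 and 308, and USP39 gave 455 and 339 against 44 and 48. The values of these genes are therefore uncertain in level, and PRPF38A and CTNNBL1 were lower at both identifiers in the ovary.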

How the data were processed

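Libraries were made from frozen tissue with an Illumina TruSeq kit, per the labels' protocols, and the submitters' processing notes name TopHat2 2.1.0. The read counter, strand setting, genome build and annotation release were not given, so overlapping or near-identical genes are uncertain. The deposited signal is a gene's read count divided by a size factor, in 1 table per tissue, per the file headers. All values (100%) were whole multiples of a column's lowest value to within 0.01 read, and reads were recovered by division. The p-value columns that the authors deposited compare the 2 libraries of a tissue.

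From these, log2 ratios were computed with a pseudocount of 1, which understates differences of genes with few reads. Ratios without it carry exact conditional binomial (Clopper-Pearson) 95% intervals. Intervals and the floor of 3 reads cover counting error only, as repeated reads of a molecule cannot be told from separate molecules. RPM is a gene's reads divided by its library's gene reads. Fold thresholds of 1.5 and 2 apply to the log2 ratio. The deposited tables named 12762 genes and an Ensembl name table raised this to 14419. PRPF38B has another symbol, STXBP3, in that table. Named members were, per tissue, the 8 highest and 8 lowest ratios at a mean of at least 50, members 1.5-fold different alike in 3 tissues (there were none), the 2 with most reads of each role group and those with a symbol at more than 1 identifier, and up to 3 genes per further splicing list and tissue by size of the ratio. Some of these are not printed, and members printed beyond them, to complete a role group, were named with their values seen. Members and lists were chosen with earlier results of these data known.

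The alternatives tried were library totals made equal, trimmed-mean scaling, a pseudocount of 5, no floor, floors of 50 and 200, members including HSPA2, symbols listed once, and the authors' adjusted p as a further condition. Chosen after seeing the data were count tests on the recovered reads for state with a tissue block (edgeR 4.0.16 and DESeq2 1.42.0 in R 4.3.3), the count of genes lower in every tissue without the hypothalamus, and trimmed-mean scaling over 6 libraries. Some results are not reported here. Scripts were tested on simulated reads.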

Additional observations from a re-analysis of the deposited data

Results flagged for a closer look

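Among members at least 1.5-fold different in a tissue, 2 had the opposite sign in both other tissues, which set them apart. The difference between tissues was not tested for either. PRPF40B had a log2 ratio of -1.42 in the ovary, 0.22 in the hypothalamus and 0.42 in the pituitary. SNRPA had a log2 ratio of -0.74 in the ovary, 0.020 in the hypothalamus and 0.26 in the pituitary. Its ratio in the hypothalamus had a counting interval of 0.888 to 1.16, so the sign there is not resolved even against counting error. With equal library totals the value for SNRPA in the hypothalamus is shifted by -0.092 and lies below 0.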

How the results depend on the processing

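No paired analysis was possible because each tissue and state has 1 library with no replicate number to pair by; tissue as a block is given below. Making library totals equal moved the median log2 ratio of spliceosome genes to -0.13 in the hypothalamus, -0.14 in the pituitary and -0.46 in the ovary, and the count at least 1.5-fold lower in the ovary from 9 to 26. It also moved 7 of 8 named ovary members beyond their counting intervals, PRPF40B to -1.62. The gap between the median of the members and that of all genes became -0.045 and -0.060 in the hypothalamus with floors of 50 and 200, -0.038 and -0.047 in the pituitary, and -0.27 with either floor and -0.24 with no floor in the ovary. Requiring the authors' adjusted p of at most 0.05 left 0 ovary members. No median over all spliceosome genes of a tissue, and none of the 8 named ovary members at least 1.5-fold lower, changed sign under the alternatives run. Of 130 alternative values for medians and counts, 118 stayed within the counting interval of the members' summed reads or within 1.5 times the count. Some of these could hardly move by construction. No floor and a floor of 50 kept the same 81 members, and rescaling shifts members and all genes alike. A further condition on the adjusted p cannot raise a count of 0. The added count tests take the 3 tissues as repeats of each state, although they are different organs. edgeR's quasi-likelihood test called 0 of 81 members and 0 of 14444 genes at an adjusted p of at most 0.05, and DESeq2 called 0 members and 46 genes. Neither gave a member an unadjusted p of at most 0.05. Without the hypothalamus libraries, 37 members were lower in every tissue left, against 27 in all 3. Leaving out a tissue cannot lower this count, and the shares of all genes were 23.8% of 12214 and 12.7% of 11897. Depth limited MAGOHB, SRPK3 and ESRP1, which had few reads in several libraries.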
